A study of Mus musculus with 6 samples.

Results

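Cochlear tissue of C57BL/6 mice, a strain that loses its hearing early in adult life, was compared between a young and an old group by RNA-sequencing. The young group was 1 month old by the sample labels and the old group was 12 months old, with no treatment in either, and each group held 3 samples in which tissue of 3 mice was mixed. The sample labels name the dissected tissue as the basilar membrane of the cochlea, and the sex of the mice is not given in the sources used here. A bulk sample of this kind gives 1 value for all its cells, so that fewer cells of a type and less RNA per cell cannot be told apart. The genes described here are 8 genes of the spiral ligament and sulcus, chosen by name: Coch, Otos, Pou3f4, Tbx18, Slc26a4, Slc4a11, Car2 and Car3. They are 8 of 25823 genes or unassigned transcripts for which FPKM values (fragments per kilobase of transcript scaled to library size) were summed, and all 8 passed the filter of a mean of at least 0.1 FPKM.

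The spiral ligament is the connective tissue that anchors the lateral wall of the cochlea to its bony shell. Its fibrocytes secrete a matrix rich in cochlin, are joined by gap junctions and are thought to return potassium from the sensory epithelium toward the stria vascularis. The sulcus and root cells line the endolymph beside the sensory epithelium and the ligament, and the anion exchanger pendrin in these cells releases bicarbonate into the endolymph. Carbonic anhydrases make bicarbonate and protons from carbon dioxide and water. Mutations in the human counterparts of Coch, Pou3f4 and Slc26a4 are known causes of hereditary deafness.

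Before the comparison of ages, the tissue was checked for lateral wall transcripts. All 8 markers of spiral ligament fibrocytes (Coch, Otos, Tbx18, Pou3f4, Otor, Slc12a2, Gjb2 and Gjb6) were at 35.0 FPKM or more in each of the 6 samples, although the labels name the basilar membrane. Of these markers, Coch, Otos, Tbx18 and Pou3f4 are themselves among the 8 genes described here. Markers of strial marginal cells were present as well, with a summed level of 822 to 1184 FPKM in young samples and 817 to 886 FPKM in old samples. Lrp2 was the largest part of this sum, at 565.0 to 790.9 FPKM in young and 529.0 to 576.1 FPKM in old samples. Transcripts used as markers of the lateral wall were thus present in the samples, and the cells they came from were not tested. The deposited FPKM values fell on steps that correspond to 12570000 to 15670000 fragments per sample. From these steps, the least covered value of the 8 genes, that of Pou3f4 in old replicate 1, rested on an estimated 1620 fragments.

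In old mice the pendrin gene Slc26a4 was 2.27-fold higher and the carbonic anhydrase gene Car3 was 2.21-fold higher, while the cochlin gene Coch was 34.3% lower. These 3 genes passed the threshold of 0.05 in limma, a linear model with pooled variance estimates, after adjustment over 19649 genes, 2 of the 8 being higher and 1 lower. Across all genes tested, 5.41% were higher and 3.68% were lower by the same rule. Because the 8 genes are abundant, the share among genes with a mean of at least 20 FPKM is also relevant, and it was 15.3% in both directions together, a limit chosen after the values were seen. The old samples all exceeded the young ones for Slc26a4, Car3 and Car2, a pattern found in 17.5% of all genes tested. All old samples lay below all young samples for Coch, Slc4a11 and Tbx18, a pattern found in 16.0% of all genes tested. The groups overlapped for Otos and Pou3f4. The median log2 change of the 8 genes was -0.16, against 0.01 for all genes tested.

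**Figure D1:**
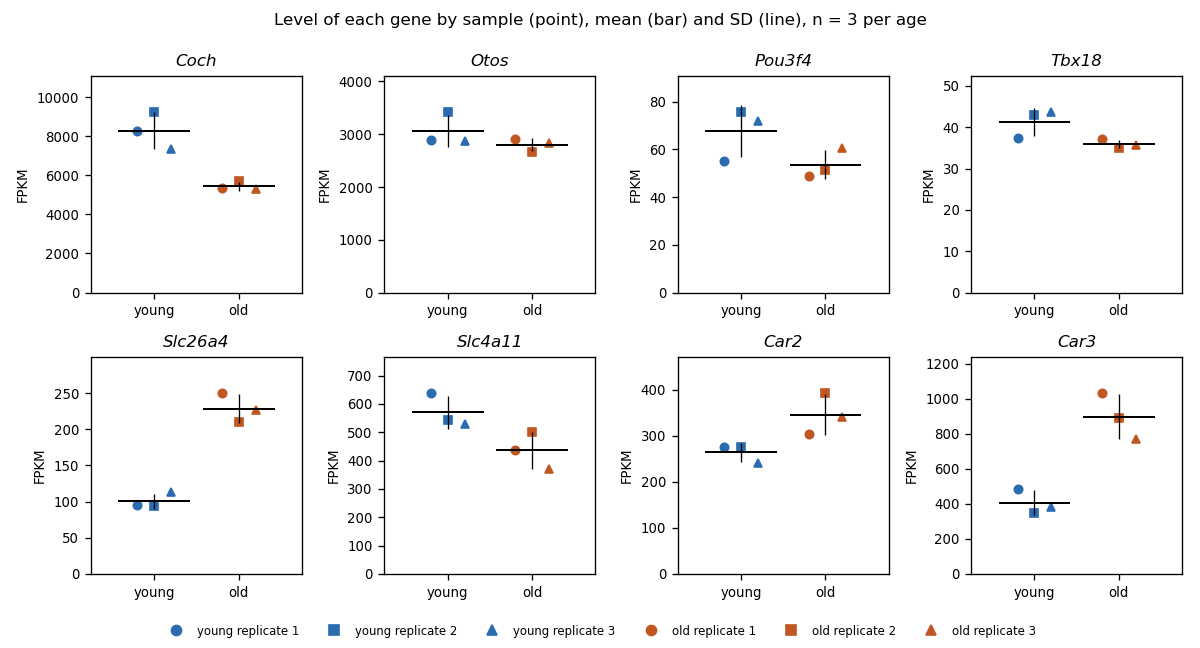
FPKM of the 8 genes, 1 panel each with its own linear axis from 0. Points are the 3 young and 3 old samples, the bar is the mean and the vertical line the SD. The old samples of Slc26a4 lie between 209.9 and 249.5 FPKM, all above the young samples, and those of Coch lie between 5303 and 5702 FPKM, all below them.

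Coch and Otos encode secreted proteins of the fibrocytes. Cochlin is an extracellular matrix protein with an LCCL domain and von Willebrand factor A domains, and otospiralin is a small secreted protein. On GRCm38, Coch spans 51593341 to 51605771 of chromosome 12 (plus strand), and Otos 92644218 to 92648841 of chromosome 1 (minus strand). Coch was at 8271, 9242 and 7371 FPKM in young replicates 1, 2 and 3. It was at 5336, 5702 and 5303 FPKM in old replicates 1, 2 and 3. No old sample came near the lowest young sample, and the old samples lay closer together than the young ones. The mean went from 8295 ± 936 FPKM (SD, n = 3) to 5447 ± 221 FPKM (SD, n = 3), a log2 change of -0.60 (SE 0.11, 95% interval -0.85 to -0.35, limma adjusted p = 0.0241). Coch took up 1.27 to 1.60% of the summed FPKM of a young sample and 0.881 to 0.954% of that of an old sample. By mean FPKM it ranked 5th of all genes in young mice and 6th in old mice.

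The call for Coch depended on single samples more than its size did. With 1 sample left out, the log2 change stayed between -0.68 and -0.52. The limma adjusted p was 0.0559, 0.0536 and 0.0172 when young replicate 1, 2 or 3 was left out, and 0.0704, 0.0833 and 0.0784 when old replicate 1, 2 or 3 was left out, so that Coch passed only in the absence of young replicate 3. Under quantile normalization, which sets values of equal rank to the same level in all samples, the log2 change was -0.25 (limma adjusted p = 0.338). Of the 4 annotated Coch transcripts the table holds 2. ENSMUST00000085412, with 12 exons and 2456 nt, made up 94.1 to 95.2% of the gene's FPKM in each sample, and ENSMUST00000164782, with 11 exons and 2681 nt, made up the rest. The means of the minor transcript were 429.1 FPKM in the young and 306.0 FPKM in the old group, and its old samples, 288.3 to 335.7 FPKM, lay below its young samples, 402.0 to 447.2 FPKM.

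Otos, the second most abundant of the 8 genes, did not pass the threshold. It was at 2896, 3420 and 2876 FPKM in the young replicates and at 2905, 2661 and 2836 FPKM in the old replicates. Young replicate 2 stood above the other samples, and old replicate 1 lay within the young range. The log2 change was -0.13 (SE 0.09, 95% interval -0.35 to 0.09, limma adjusted p = 0.431), an interval that holds folds from 0.787 to 1.07. With 1 sample left out it was -0.17 to -0.04, the smallest being without young replicate 2. Within each sample, Coch stood at 2.86, 2.70 and 2.56 FPKM per FPKM of Otos in the young replicates and at 1.84, 2.14 and 1.87 in the old replicates. This ratio does not depend on how the libraries were scaled to each other, and the groups did not overlap (two-sided p = 0.1 in an exact permutation test, which cannot go lower with 3 samples against 3). It was 2.71 ± 0.147 (SD, n = 3) in young mice and 1.95 ± 0.168 (SD, n = 3) in old mice.

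The sequence before the start of Coch and of Slc26a4 was looked at. Its relation to the changes of these genes with age was not tested. The RefSeq promoter table (GRCm38.p6) matched 5 of the 8 genes, Coch, Otos, Pou3f4, Tbx18 and Slc26a4. The 250 bases upstream of the RefSeq start are shown 5′ to 3′ on the strand of each gene, for these genes because they are the 2 of the 5 that passed the threshold. Capitals mark motif matches, and lower case letters all other bases. The Coch sequence lies at chr12:51593091-51593340 on the plus strand.
Coch: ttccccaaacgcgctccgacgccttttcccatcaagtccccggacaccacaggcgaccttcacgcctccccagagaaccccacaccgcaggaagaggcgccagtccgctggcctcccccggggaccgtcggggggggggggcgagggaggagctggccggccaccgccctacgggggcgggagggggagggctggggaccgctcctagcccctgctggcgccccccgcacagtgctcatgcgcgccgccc
The Slc26a4 sequence lies at chr12:31559985-31560234 on the minus strand.
Slc26a4: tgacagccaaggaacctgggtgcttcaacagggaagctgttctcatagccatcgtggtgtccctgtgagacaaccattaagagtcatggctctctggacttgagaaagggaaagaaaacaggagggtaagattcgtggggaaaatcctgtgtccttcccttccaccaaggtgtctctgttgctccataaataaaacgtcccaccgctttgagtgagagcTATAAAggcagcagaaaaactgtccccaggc
The Coch sequence is 74.8% G and C and the Slc26a4 sequence is 49.6%, against a median of 52.4% over 32851 promoters. The motifs searched on both strands were the TATA box (TATAAA), the CCAAT box (CCAAT), the POU octamer (ATGCAAAT) and a T-box element (AGGTGTGA), none of which overlaps another in these sequences. Slc26a4 holds a TATA box from base 31 to base 26 before the start, a motif found in 12.4% of promoters. Coch holds a match to none of the 4 motifs. A CCAAT box, found in 33.8% of promoters, occurs 3 times before Pou3f4 and once before Tbx18. The octamer and the T-box element, found in 1.60% and 1.12% of promoters, occur in none of the 5 windows.

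Pou3f4 and Tbx18 encode transcription factors of the mesenchyme from which the fibrocytes form, with a POU domain and a T-box. Tbx18 lies on chromosome 9 from 87702800 to 87731260 on the minus strand. Pou3f4 was at 55.3, 75.6 and 71.9 FPKM in the young replicates and at 48.9, 51.4 and 60.5 FPKM in the old replicates. Old replicate 3 lay above young replicate 1, so that the groups overlapped. The log2 change of Pou3f4 was -0.33 (SE 0.14, 95% interval -0.64 to -0.01, limma adjusted p = 0.169). Tbx18 was at 37.4, 42.9 and 43.7 FPKM in the young replicates and at 37.1, 35.0 and 35.7 FPKM in the old replicates. The old samples lay below the young ones, but by only a narrow gap between old replicate 1 and young replicate 1. The log2 change of Tbx18 was -0.20 (SE 0.08, 95% interval -0.39 to -0.01, limma adjusted p = 0.165). Neither factor passed the threshold, and both intervals lie below 0 before adjustment. A locus of unassigned type, D030062O11Rik, overlaps Tbx18 on the opposite strand and is not among the transcripts analysed here, and the strand setting of the authors' counting is not given in the sources used here.

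Pou3f4 lies beside the long noncoding RNA gene Gm44593 on chromosome X of GRCm38. Gm44593 spans 110634586 to 110812324 on the minus strand and Pou3f4 spans 110814280 to 110817207 on the plus strand, so that they point away from each other with 1955 bases between their starts. Gm44593 was at 1.18, 0.751 and 1.42 FPKM in the young replicates, from an estimated 10 to 17 fragments. In the old replicates it was at 3.16, 2.50 and 2.78 FPKM, from an estimated 36 to 38 fragments. The groups did not overlap for this low-abundance RNA. Its log2 change was 1.30 (SE 0.27, 95% interval 0.67 to 1.92, limma adjusted p = 0.0315 over all genes), and the highest adjusted p with 1 sample left out was 0.0951, with a log2 change between 1.06 and 1.48. The adjusted p was above the threshold without each of young replicate 1, young replicate 2 and the 3 old replicates in turn. Thus the RNA passed as higher in old mice with all 6 samples, while Pou3f4, whose groups overlapped, did not pass (limma adjusted p = 0.169). Per FPKM of Gm44593, Pou3f4 stood at 47.0, 101 and 50.6 FPKM in the young replicates and at 15.4, 20.5 and 21.8 in the old replicates. The groups did not overlap in this ratio, chosen after the values were seen (exact permutation test, two-sided, p = 0.1, the lowest it can give). Gm44593 by itself already separated the groups, so that the ratio does not show a change of Pou3f4. On the other side of Pou3f4 the nearest annotated gene, Cylc1, begins 293210 bases away, and its highest value was 0.0487 FPKM.

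**Figure D2:**
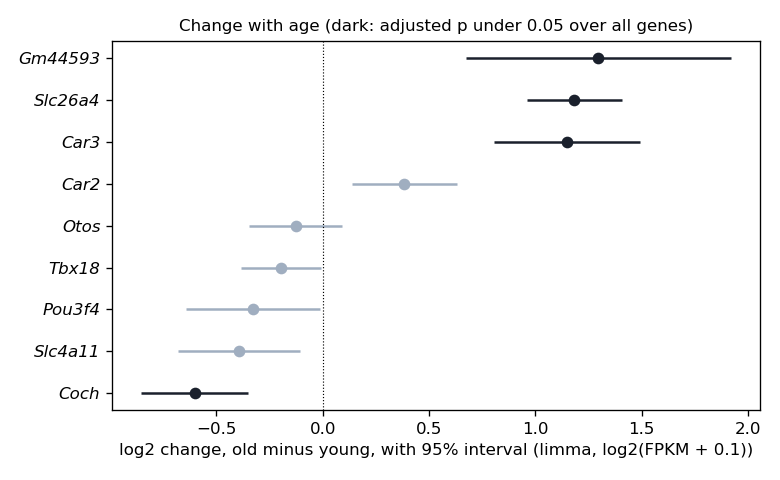
Log2 change, old minus young, of the 8 genes and of Gm44593 with the 95% interval from limma on log2(FPKM + 0.1). Dark points passed the threshold of 0.05 with p adjusted over all genes. Slc26a4, Car3 and Gm44593 lie between 1.15 and 1.30, Coch lies at -0.60, and of the 9 intervals that of Otos holds 0.

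Slc26a4 and Slc4a11 encode transporters of the lateral wall. Pendrin, the product of Slc26a4, exchanges chloride for bicarbonate at the endolymphatic face of sulcus and root cells, and Slc4a11 is a membrane transporter of fibrocytes in the bicarbonate transporter family. Slc26a4 lies on chromosome 12 from 31519827 to 31559969 on the minus strand. It was at 95.3, 94.1 and 112.6 FPKM in the young replicates and at 249.5, 209.9 and 226.3 FPKM in the old replicates. The lowest old sample stood far above the highest young sample. The mean rose from 100.7 ± 10.4 FPKM (SD, n = 3) to 228.6 ± 19.9 FPKM (SD, n = 3), a log2 change of 1.18 (SE 0.10, 95% interval 0.96 to 1.41, limma adjusted p = 0.00528). This was the smallest adjusted p of the 8 genes. It stayed below the threshold in each of the 16 alternatives run, with a log2 change between 1.12 and 1.27 when 1 sample was left out. The table holds 1 of its 2 annotated transcripts, ENSMUST00000001253, with 21 exons and 3075 nt.

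Slc4a11 spans 130684113 to 130697519 of chromosome 2 on the minus strand. It was at 637.0, 543.1 and 530.9 FPKM in the young replicates and at 437.9, 501.2 and 369.5 FPKM in the old replicates. All old samples were below all young samples, with the nearest pair being old replicate 2 and young replicate 3. The log2 change was -0.39 (SE 0.12, 95% interval -0.68 to -0.10), which did not pass (limma adjusted p = 0.0903). Its long transcript ENSMUST00000099362, with 21 exons and 3196 nt, made up 84.3 to 89.6% of the gene's FPKM, and the short transcript ENSMUST00000127397, with 5 exons and 621 nt, made up the rest. Slc26a4 and Slc4a11 thus stood on opposite sides of 0. Relative to Coch within each sample, Slc26a4 went from 1.15, 1.02 and 1.53 FPKM per 100 FPKM of Coch in the young replicates to 4.68, 3.68 and 4.27 in the old replicates. Both genes by themselves already separated the groups, in opposite directions. The ratio of Slc4a11 to Coch overlapped between the groups, with 6.93 ± 0.943 FPKM (SD, n = 3) per 100 FPKM of Coch in the young and 7.99 ± 0.930 FPKM (SD, n = 3) in the old group (exact permutation test, two-sided, p = 0.3).

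Car2 and Car3 encode cytosolic carbonic anhydrases that lie side by side on the plus strand of chromosome 3, Car3 from 14863512 to 14872523 and Car2 from 14886273 to 14900770, with 13749 bases between them. Carbonic anhydrase II is among the fastest enzymes of the family, and carbonic anhydrase III has low activity and is best known from muscle and fat. Car3 was at 485.4, 349.1 and 381.2 FPKM in the young replicates and at 1029, 888.7 and 770.8 FPKM in the old replicates. Each old sample lay well above the highest young sample, old replicate 1 being the highest. The mean rose from 405.2 ± 71.3 FPKM (SD, n = 3) to 896.3 ± 129 FPKM (SD, n = 3), a log2 change of 1.15 (SE 0.15, 95% interval 0.80 to 1.49, limma adjusted p = 0.0127). With 1 sample left out the log2 change stayed between 1.04 and 1.29, and Car3 missed the threshold without old replicate 2 (limma adjusted p = 0.0572).

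Markers of muscle and fat were looked at beside Car3. The summed level of 10 skeletal muscle markers was 1.82 to 3.38 FPKM in young samples and 3.39, 4.66 and 25.5 FPKM in old replicates 3, 2 and 1, and 8 of the 10 had a mean below 1 FPKM. Old replicate 1 thus stood apart in muscle transcripts, and without it the log2 change of Car3 was 1.04 (limma adjusted p = 0.0444). Of 8 adipocyte markers, 7 had a mean below 1 FPKM, Adipoq reached 0.225 FPKM at most and Lep was listed at 0 in all samples. The eighth, Plin4, made up nearly all of their summed level of 39.3 to 51.6 FPKM in young samples and 47.8 to 83.4 FPKM in old samples. In limma, 0 of 9 tested muscle markers and 0 of 3 tested adipocyte markers passed the threshold (1 and 0 at an unadjusted p below 0.05). The median log2 change was 1.11 for the tested muscle markers and -0.33 for the tested adipocyte markers. The part of muscle and fat in the rise of Car3 was not tested beyond these values.

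Car2 was at 276.6, 275.8 and 240.0 FPKM in the young replicates and at 304.3, 392.0 and 341.8 FPKM in the old replicates. The old samples all lay above the young ones, with old replicate 1 close to the young range. The log2 change was 0.38 (SE 0.11, 95% interval 0.14 to 0.63, limma adjusted p = 0.0643), so that Car2 did not pass. The main transcript ENSMUST00000029078, with 7 exons and 1788 nt, made up 86.4% or more of its FPKM, and the short transcript ENSMUST00000192609, of 587 nt, was at 0.0151 FPKM in young replicate 1 and between 6.55 and 53.3 FPKM in the other samples. The ratio of Car3 to Car2 was 1.75, 1.27 and 1.59 in the young replicates and 3.38, 2.27 and 2.25 in the old replicates, without overlap (exact permutation test, two-sided, p = 0.1). Car2 is also strong in red blood cells, osteoclasts and oligodendrocytes. The summed level of the erythroid markers was 1434 to 2954 FPKM in young samples and 1369 to 2254 FPKM in old samples. That of the osteoclast markers was 19.6 to 29.7 FPKM and 19.5 to 19.8 FPKM. The sum over 7 oligodendrocyte markers was 220.2 to 288.3 FPKM and 318.0 to 356.8 FPKM, so that it was higher in old samples, as Car2 was. Nearly all of it came from the claudin gene Cldn11, at 202.9 to 276.8 FPKM in young and 308.4 to 346.4 FPKM in old samples (limma adjusted p = 0.0639). Cldn11 was also placed on the list of other fibrocyte genes, and its cell source was not tested. Mag was at 10.8 to 17 FPKM in young and 9.14 to 11.2 FPKM in old samples, and the other 5 (Mog, Opalin, Mobp, Hapln2 and Ermn) reached 4.54 FPKM at most. Of these lists, 7 erythroid, 4 osteoclast and 6 oligodendrocyte markers were tested. In limma, 0 of them passed the threshold (1, 0 and 2 at an unadjusted p below 0.05). The part of these cell types in the values of Car2 was not tested.

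**Figure D3:**
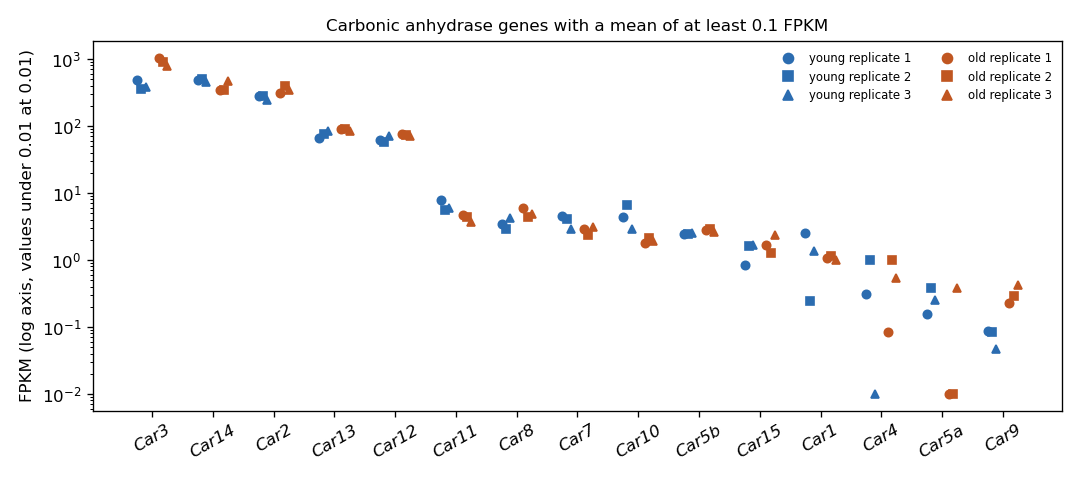
FPKM on a log axis of the carbonic anhydrase genes with a mean of at least 0.1 FPKM, ordered by mean, with 1 point per sample and values below 0.01 FPKM drawn at 0.01. Car3 lies highest in old mice, with samples from 770.8 to 1029 FPKM.

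The other carbonic anhydrases did not pass the threshold. Of 14 genes, 13 were tested, 0 were higher and 0 were lower in limma (7 at an unadjusted p below 0.05), and their median log2 change was 0.15. Car14, the most abundant of them and a membrane-bound enzyme, was at 478.4 ± 27.3 FPKM (SD, n = 3) in the young and 385.0 ± 75.4 FPKM (SD, n = 3) in the old group (log2 change -0.33, SE 0.13, limma adjusted p = 0.157). Old replicate 3, at 472.1 FPKM, lay within its young range. Car13, which stands at the far end of the gene cluster of Car1, Car3 and Car2, was at 74.6 ± 8.94 FPKM in the young and 87.9 ± 3.35 FPKM in the old group (limma adjusted p = 0.149). Car1, the neighbour of Car3, was below 2.50 FPKM in all samples. By mean FPKM, Car14 stood above Car3 in young mice, with overlapping samples, and below it in old mice, without overlap.

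Among the transporters related to pendrin and to Slc4a11, 1 gene passed. Of 10 other SLC26 genes, 7 were tested, and Slc26a5, which encodes the hair cell motor protein prestin, fell from 6.66 ± 1.30 FPKM (SD, n = 3) to 3.02 ± 0.0587 FPKM (SD, n = 3), which is -1.10 on the log2 scale (SE 0.17, limma adjusted p = 0.0194), and it missed the threshold without each of the 3 old replicates in turn (adjusted p 0.0557 to 0.0708). The most abundant of these genes, Slc26a7, was at 31.0 ± 3.06 and 36.4 ± 0.959 FPKM (limma adjusted p = 0.136). The median log2 change of the 7 genes was -0.21. Of 9 other SLC4 genes, 7 were tested, 0 passed in limma (2 at an unadjusted p below 0.05) and the median was -0.25. Their most abundant member Slc4a10, which encodes a sodium bicarbonate transporter, was at 237.0 ± 47.0 FPKM in the young and 158.9 ± 8.40 FPKM in the old group (log2 change -0.56, limma adjusted p = 0.0547). All old samples of Slc4a10 lay below all young samples.

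Genes of the sulcus, root and interdental cells were looked at beside Slc26a4. Of 12 genes, 11 were tested, of which 5 passed as higher and 0 as lower in old mice, and their median log2 change was 0.18. Across all genes tested, 5.41% were higher and 3.68% were lower by the same rule. This list was chosen with earlier results of these data known. Anxa1, a calcium-dependent membrane-binding protein, rose from 95.9 ± 18.3 to 210.8 ± 13.0 FPKM (log2 change 1.15, SE 0.14, limma adjusted p = 0.0116). P2rx2, an ATP-gated cation channel, rose from 27.9 ± 3.71 to 61.6 ± 7.51 FPKM (log2 change 1.14, SE 0.13, limma adjusted p = 0.0116). These 2 rises were close to that of Slc26a4 in size. Otoa, the attachment protein otoancorin of the interdental cells, rose from 38.8 ± 3.47 to 62.1 ± 4.97 FPKM (log2 change 0.68, limma adjusted p = 0.0137). Lgr5, a receptor of the Wnt pathway, rose from 8.10 ± 0.650 to 13.4 ± 1.74 FPKM (log2 change 0.71, limma adjusted p = 0.0230). Ceacam16, a protein of the tectorial membrane and the most abundant gene of the list, rose from 595.7 ± 94.5 to 906.6 ± 112 FPKM (log2 change 0.61, limma adjusted p = 0.0365). The groups did not overlap for any of these 5 genes.

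**Figure D4:**
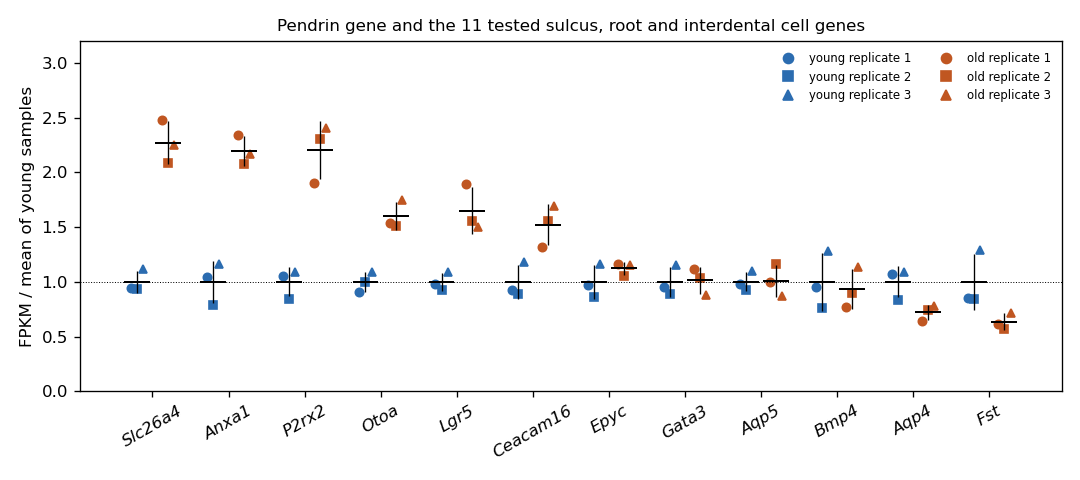
FPKM of Slc26a4 and of the 11 tested genes of sulcus, root and interdental cells, divided by the mean of the young samples of the gene. Points are samples, bars are means and vertical lines the SD. Slc26a4, Anxa1 and P2rx2 stand at 2.20 to 2.27 times the young mean in old mice, Otoa, Lgr5 and Ceacam16 at 1.52 to 1.65 times, and the other 6 genes did not pass the threshold.

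Not all genes of the list moved this way. Epyc, Gata3, Aqp5 and Bmp4 had overlapping young and old samples, and Aqp4 and Fst had log2 changes of -0.46 and -0.62 that did not pass (limma adjusted p = 0.0883 and 0.0873). Foxi1, a transcription factor that drives Slc26a4 in the endolymphatic sac, was listed at 0 in all samples. With 1 sample left out, the 5 genes kept log2 changes of at least 0.53. The adjusted p of all 5 was above the threshold without old replicate 2, at 0.0550 to 0.119. Lgr5 and Ceacam16 also missed it without each other sample except young replicate 3. Of 10 genes of endolymph acid-base and potassium transport, 1 passed: Kcnj16, a subunit of inwardly rectifying potassium channels, rose from 62.9 ± 11.8 to 99.4 ± 7.40 FPKM (log2 change 0.67, limma adjusted p = 0.0281). Kcnj16 passed with young replicate 3 left out but with none of the other 5 samples left out, the adjusted p then being 0.0621 to 0.0902. The highest gene of this list, Kcne1, was at 140.9 ± 37.9 FPKM in the young and 120.3 ± 5.92 FPKM in the old group (limma adjusted p = 0.554).

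The other fibrocyte genes did not follow Coch as a group. Of 12 genes tested, 1 was higher, 1 was lower and 10 did not pass, with a median log2 change of 0.17. Cald1, the actin-binding protein caldesmon, rose from 92.6 ± 7.95 to 128.0 ± 5.63 FPKM (log2 change 0.47, SE 0.08, limma adjusted p = 0.0216). Epha4, an ephrin receptor, fell from 16.1 ± 2.72 to 10.3 ± 1.5 FPKM (log2 change -0.64, SE 0.15, limma adjusted p = 0.0465). Without 1 sample, Cald1 missed the threshold without young replicate 2 and each of the 3 old replicates (adjusted p 0.0536 to 0.0872), and Epha4 without each sample except young replicate 3 (0.0646 to 0.145). The most abundant gene, S100b, which encodes a calcium-binding protein, was at 3424 ± 233 FPKM in the young and 2946 ± 197 FPKM in the old group (limma adjusted p = 0.168). The gap junction genes Gjb2 and Gjb6, the cotransporter gene Slc12a2 and Otor did not pass, and the log2 change of Otor was 0.01 with a wide 95% interval from -0.58 to 0.60. Of 12 transcription factors of the otic mesenchyme, 0 passed in limma (4 at an unadjusted p below 0.05), with a median log2 change of -0.25. Foxc1, the most abundant of them, was at 49.2 ± 3.57 and 47.5 ± 4.28 FPKM, and Twist1 was at 23.6 ± 4.36 and 15.0 ± 2.86 FPKM (limma adjusted p = 0.0722).

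Markers of other cell types moved with age beside these genes. For general fibroblasts, 3 of 8 markers were lower, Col1a2, Col3a1 and Dcn, with a median log2 change of -0.47 over the 8. The summed level was 419.9 to 548.0 FPKM in young samples and 314.1 to 351.8 FPKM in old samples. Dcn was the largest part of it, at 236.9 to 271.9 FPKM and 164.8 to 203.4 FPKM. Lum went the other way, from 82.7 ± 9.36 to 103.8 ± 5.16 FPKM (log2 change 0.33, limma adjusted p = 0.0693). Of 9 markers of osteoblasts and osteocytes, Ibsp and Sp7 were lower. The sums were 86.4 to 323.7 FPKM in young samples and 64.8 to 86.1 FPKM in old samples, with young replicate 1 the highest. Their median log2 change was -1.14, with 9 at an unadjusted limma p below 0.05. All old samples lay below all young samples for 7 of the 9 and above them for 1. Across all genes tested, these patterns were found in 16.0% and 17.5%. All 8 macrophage markers were higher, with sums of 124.2 to 194.2 FPKM in young samples and 689.3 to 767.1 FPKM in old samples. Of 8 hair cell markers, Slc26a5 and Ocm were lower, with sums of 119.1 to 209.8 FPKM and 70.2 to 93.5 FPKM. Most of these sums came from Ocm, at 91.9 to 173.5 FPKM in young and 47.8 to 70.5 FPKM in old samples. The median log2 change of the 8 was -0.64, while that of Myo7a was 0.002 (limma adjusted p = 0.997). Of 8 supporting cell markers and 8 strial marginal cell markers, 0 passed in limma (3 and 2 at an unadjusted p below 0.05). The supporting cell sums were 114.9 to 131.8 FPKM in young samples and 101.4 to 113.3 FPKM in old samples. No marker of these lists was listed at 0 in all samples. The part of these cell types in the changes of Coch, Slc26a4 and Car3 was not tested.

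**Figure D5:**
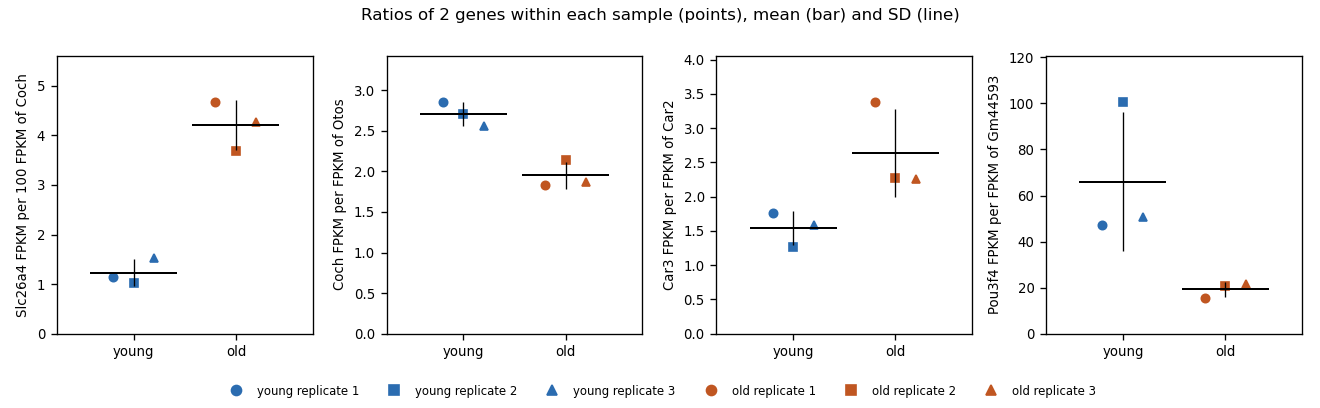
Ratios of the FPKM values of pairs of genes within each sample, which do not depend on the scaling between libraries. Points are samples, the bar is the mean and the vertical line the SD of 3 samples, on linear axes from 0. In each of the 4 panels, whose pairs were chosen after the values were seen, the old samples lie on 1 side of the young samples. The ratio of Slc4a11 to Coch, which overlapped between the groups, is not drawn. Slc26a4 per 100 FPKM of Coch went from 1.23 ± 0.265 to 4.21 ± 0.50.

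The order of the 8 genes by FPKM was the same in both ages except for Car3. In young mice it ran Coch, Otos, Slc4a11, Car3, Car2, Slc26a4, Pou3f4 and Tbx18, and no neighbours in this order overlapped between samples. In old mice Car3 stood above Slc4a11, and the samples of Slc4a11 and Car2 overlapped. Together the 8 genes made up 2.01 to 2.44% of the summed FPKM of young samples and 1.65 to 1.75% of that of old samples. The genes with profiles most like those of the 3 changed genes were sought among 15073 others with a mean of at least 1 FPKM, by the root mean square difference of log2 values centred on the gene's mean over the 6 samples. For Coch these were Kifap3, Drp2 and Atp6v1b2, with differences of 0.0409, 0.0429 and 0.0561. For Slc26a4 they were Mal2, Egf and Zeb2os, at 0.0618, 0.0829 and 0.0841. For Car3 they were Zc3h6, Cldn22 and Tmcc3, at 0.0621, 0.0666 and 0.0901. Their levels were lower than that of the gene they resembled, as for Mal2 at 14.7 FPKM in young and 31.9 FPKM in old mice.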

How the data were processed

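RNA from cochlear tissue of 3 young and 3 old samples was made into strand-specific libraries and sequenced as paired 150-base reads. Per the submitters' processing notes, CASAVA 1.8, TopHat2 2.0.9, Cufflinks 2.1.1 and Cuffdiff 2.1.1 were used with GRCm38. The authors deposited FPKM values per transcript, without counts. The annotation release, the scaling between libraries and the strand setting are not given in the sources used here.

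Of 56671 transcripts, 55275 were matched to GENCODE M21 genes and their FPKM summed per gene. The steps of the low FPKM values gave the fragments per sample, with 94.2 to 95.3% of the values tested lying within 0.1 of a whole step. Old and young were compared with limma 3.58.1 in R 4.3.3 (eBayes with trend, 2 groups of 3, no covariate) on log2(FPKM + 0.1), for 19649 genes with a mean of at least 0.1 FPKM. The threshold was 0.05 after Benjamini-Hochberg adjustment, and fold changes on this scale understate the change of low genes. The FPKM folds given are ratios of group means. Ratios within samples were chosen after the values were seen and were tested by exact two-sided permutation. The limma step was tested on simulated data.

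The 8 genes and all lists were chosen with earlier results of these data known. From each list, genes past the threshold, up to the 6 with the smallest adjusted p, and the most abundant gene are named. Other list genes named were chosen after their values were seen. One marker of the oligodendrocyte list is not reported here. Alternatives changed the pseudocount, filter, scaling, variance trend, sample weights, gene value, replicate block and samples. Each sample mixed 3 mice, and p-values measure the spread between these pools.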

Additional observations from a re-analysis of the deposited data

How the results depend on the processing

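Over 16 alternatives for each of the 8 genes, no log2 change turned its direction, and 115 of 128 values kept their side of the threshold, with 10 lost and 3 gained. For the 16 other named genes, 191 of 256 kept it. Across all genes, the 1063 higher and 724 lower became 206 and 101 with no filter, 271 and 121 without a variance trend and 44 to 935 and 15 to 821 with 1 sample left out. With the replicate number as a block they became 410 and 265. Over genes with a mean of at least 1 FPKM, samples of the same number did not deviate together (correlations 0.03, -0.10 and 0.04). Correlations over so many genes cannot show whether a smaller part of them shared a batch. Under the block Coch, Slc26a4 and Car3 kept their calls, while Gm44593, Lgr5, Kcnj16, Cald1 and Epha4 missed the threshold (limma adjusted p = 0.0540, 0.0530, 0.0585, 0.0552 and 0.0936). Of the 8 genes, 2 higher and 1 lower became 1 and 0 with no filter, 1 to 2 and 0 to 1 with 1 sample left out, 2 lower under quantile normalization and 0 lower without a trend. Coch missed the threshold at -0.60 with no filter or no trend and at -0.25 under quantile normalization, its log2 change being -0.68 to -0.52 with 1 sample left out. Quantile normalization brought Otos (-0.29) and Slc4a11 (-0.60) past it, and sample weights brought Car2 (0.44) past it. With 1 sample left out, the uncalled genes ranged from -0.47 to -0.24 (Pou3f4), -0.27 to -0.16 (Tbx18), -0.50 to -0.28 (Slc4a11) and 0.29 to 0.47 (Car2). Car3 missed it at 1.15 with no filter, and was 1.04 to 1.29 with 1 sample left out. With no filter more low genes enter the variance trend and the adjustment. In that setting the SE was 0.698 for Coch, against 0.107 in the main setting, and 0.103 for Slc26a4, against 0.096. The cause of the changes between settings was not tested. At 3 samples a group, smaller changes such as those of Tbx18 and Pou3f4 remain imprecise, and the FPKM values do not carry the error of assigning fragments to transcripts.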
